A study of Homo sapiens with 9 samples.

Results

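Aminoacyl-tRNA synthetases are the enzymes that load each amino acid onto its tRNA, and 37 of their genes are described here in A549, an established human lung adenocarcinoma cell line. The members were taken by name from the 58735 genes of the count matrix, requiring that the matrix called them protein-coding, and each name matched 1 gene. Of the 37, 19 encode enzymes of the cytosol, 16 encode enzymes of the mitochondrion, and GARS and KARS each encode the glycine and lysine enzymes of both compartments. GARS and KARS are counted with the cytosolic enzymes below, which gives 21 cytosolic and 16 mitochondrial genes.

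All cells were A549 and had received a plasmid. The 3 libraries of the PC3 group came from cells given the control plasmid PC3.1, the 3 of the L996 group from cells overexpressing the long non-coding RNA LINC00996, and the 3 of the RP11 group from cells overexpressing the long non-coding RNA AP001189.3. The name PC3 here refers to the plasmid and not to the prostate cell line, and the prostate markers KLK3 and FOLH1 had at most 3 counts in any library. The study built risk models for 2 kinds of lung cancer from immune-related long non-coding RNAs, and RNA-seq of these cells was a follow-up of LINC00996, with AP001189.3 sequenced as well. No source used here gives the time between transfection and RNA extraction, or the share of cells that took up the plasmid.

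Cytosolic synthetases serve the ribosomes that translate nuclear genes, while mitochondrial synthetases are nuclear-encoded enzymes that are imported to serve the mitochondrial ribosome. Several cytosolic enzymes, together with the scaffold proteins AIMP1, AIMP2 and EEF1E1, form the multisynthetase complex, and many cytosolic synthetase genes are targets of the transcription factor ATF4, which responds to a lack of amino acids. WARS, the tryptophan enzyme, stands apart in the family because its gene is induced by interferon-gamma, alongside IDO1, the enzyme that degrades tryptophan.

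Library totals ran from 15272450 to 18125447 counts. LINC00996 had between 4373 and 5952 counts in the L996 libraries and at most 9 elsewhere, and AP001189.3 had between 1660 and 2378 counts in the RP11 libraries and at most 2 elsewhere, so both labels held. The 5 epithelial markers summed to between 9805 and 9929.5 CPM (counts scaled to a common library size with TMM factors) in PC3, 13899 to 15622 in L996 and 10973 to 11545 in RP11. ALDH1A1 and AKR1B10 rose in L996 against PC3, by 0.99 and 0.93 on the log2 scale, and the other 3 did not pass. The 3 endothelial markers summed to 11.6 to 13.1 CPM in PC3, 5.25 to 6.49 in L996 and 7.28 to 9.57 in RP11, and the 3 fibroblast markers to 22.2 to 25.3, 15.8 to 17.9 and 20.7 to 24.0. PECAM1 fell in L996 by 1.42 and COL1A1 by 0.62 on the log2 scale (adjusted p = 0.000284 and 0.00635, edgeR), and VWF and DCN had at most 3 counts in every library. In RP11 against PC3, PECAM1 fell by 0.80, and ALDH1A1 and KRT8 rose by 0.32 and 0.19 (adjusted p = 0.000703, 1.58e-05 and 0.00259, edgeR). The 4 leukocyte markers summed to at most 13.9 CPM, nearly all of it CD14, the 1 of them tested, which did not pass. The part of these marker shifts in the L996 and RP11 results was not tested. L996 replicate 1 stood apart: its counts differed from the other L996 libraries with a chi-square of 22.4 and 33.3 per gene, against 2.27 to 7.32 for the other pairs of replicates. Across 16090 genes, the level of a gene in that library relative to its mean over the 9 libraries followed the GC content of its exons with a Spearman's rho of 0.43, against -0.25 and -0.43 in the other L996 libraries. The rho was 0.21 to 0.36 in the RP11 libraries and -0.28 to -0.00029 in the PC3 libraries, so the GC trend also differed between these groups. The main L996 results are given with and without L996 replicate 1. The paper states that extraction and analysis were done in triplicate for the control and LINC00996 groups. Its supplementary methods speak of biological replicates in general terms. Neither the paper nor the labels say that the libraries of a group came from separate cultures. The p-values thus measure the spread between these libraries, which may be technical. In bulk RNA, fewer cells with an mRNA and less of that mRNA per cell cannot be told apart.

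Levels of different genes were ranked only per length, with the FPKM values of the authors. The summed CPM and the WARS share given below are not corrected for length. In the PC3 group, WARS had the highest level of the 37 members, with 57.2 ± 3.4 FPKM (SD, n = 3). It was followed by AARS, the alanine enzyme, with 46.0 ± 1.5 FPKM, and by the mitochondrial isoleucine enzyme IARS2 with 45.3 ± 2.2 FPKM, and these 2 differed by less than their spread. The median member of the cytosolic enzymes stood at 20.2 FPKM and that of the mitochondrial enzymes at 3.01 FPKM. The lowest level belonged to SARS2, the mitochondrial serine enzyme, with 0.32 ± 0.12 FPKM. Its exons share 1492 of their 3231 bases on the same strand with AC011455.2. The treatment of reads there is not given, so this level may be too low. The second lowest level belonged to TARSL2, a second cytosolic threonine enzyme, with 1.86 ± 0.13 FPKM. The mitochondrial tryptophan enzyme WARS2, with 1.92 ± 0.28 FPKM, differed from TARSL2 by less than their spread. In the plot of FPKM by gene, IARS2 was the only mitochondrial member among the 16 highest control levels.

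**Figure D1:**
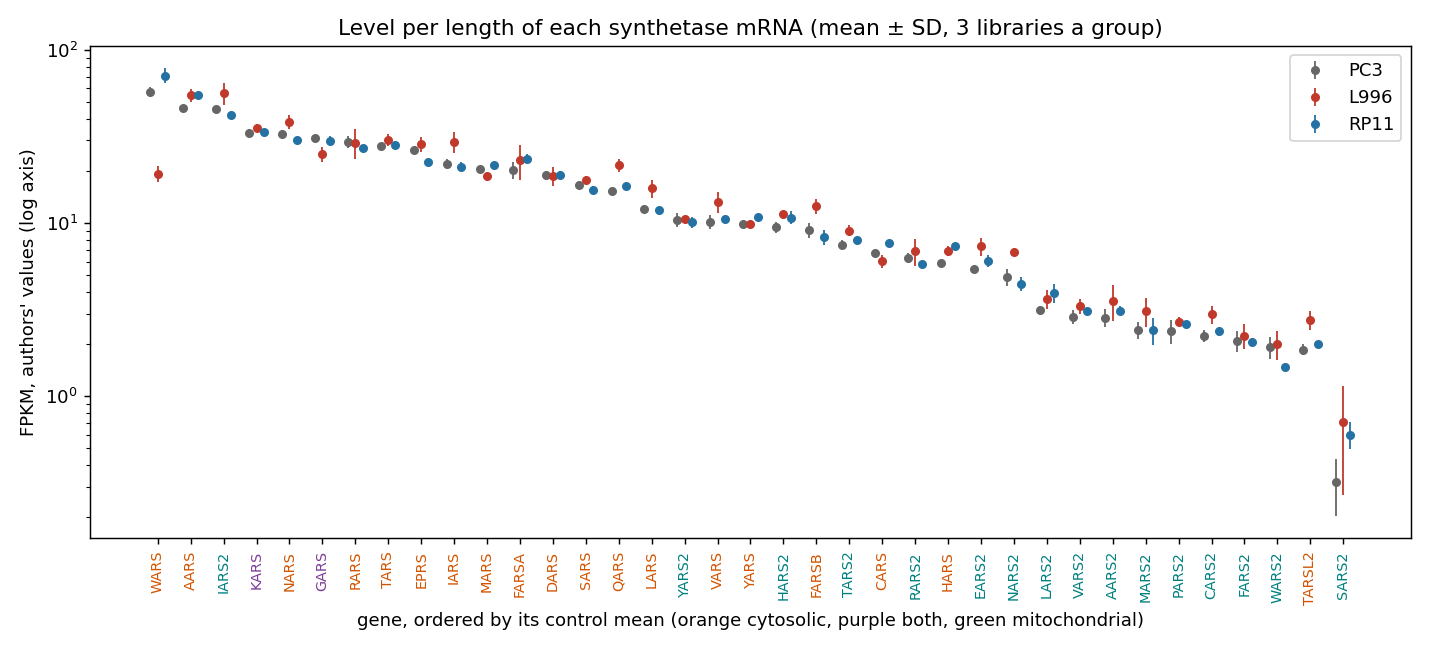
FPKM of the 37 synthetase genes on a log axis, ordered by the mean of the PC3 group, with points for group means and bars for the SD of 3 libraries (grey PC3, red L996, blue RP11). WARS stands first in PC3 and RP11 and 12th in L996, where its level was 19.3 FPKM.

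WARS was the member with the largest log2 fold change in both comparisons of L996. Its level in the PC3 libraries was 391, 354 and 355 CPM. In the L996 libraries it was 117, 116 and 139 CPM, and in the RP11 libraries 404, 479 and 485 CPM. The 3 groups did not overlap: all L996 libraries lay below all control libraries, and all RP11 libraries lay above them. Against PC3, WARS fell in L996 by 1.56 ± 0.10 (SE) on the log2 scale, to 0.338 of the control level (adjusted p = 1.73e-06, from the quasi-likelihood test of edgeR adjusted by the method of Benjamini and Hochberg over every gene tested). WARS rose in RP11 by 0.31 ± 0.06, to 1.24 times the control level (adjusted p = 0.00121, edgeR), a call that was lost when all 9 libraries were fitted together (adjusted p = 0.0783). Between the 2 overexpressing groups, the log2 fold change of L996 over RP11 was -1.88 ± 0.11 (adjusted p = 8.75e-07, edgeR). Without L996 replicate 1, the log2 fold change was -1.52 against PC3 and -1.84 against RP11, and both passed the test.

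Among all 16097 genes tested in L996 against PC3, WARS had the 21st smallest p. By FPKM, it went from rank 1 of the 37 members in PC3 to rank 12 in L996, and it was again at rank 1 in RP11 with 71.1 ± 7.1 FPKM. WARS made up between 14.9% and 16.7% of the summed CPM of the 21 cytosolic members in the PC3 libraries. In the L996 libraries its share lay between 4.93% and 5.79%, and in the RP11 libraries between 17.1% and 19.0%. The summed CPM of the other 20 cytosolic members was 1957 to 2033 in PC3, 2146 to 2254 in L996 and 1956 to 2070 in RP11, so the sum without WARS was not lower in L996. The mitochondrial tryptophan enzyme WARS2 had 6.53, 8.65 and 7.19 CPM in PC3, 6.13, 8.75 and 8.38 CPM in L996, and 5.55, 5.66 and 6.06 CPM in RP11. Its log2 fold change was 0.06 ± 0.18 in L996 and -0.37 ± 0.16 in RP11, and neither passed the test.

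The WARS gene lies at chr14:100333788-100376805 on the minus strand (GRCh38, as in the count matrix). Its exons share 287 bases with WDR25 and 385 bases with AL157871.4, both on the opposite strand. The strand setting of the counting was not given in the sources used here. WDR25 had 128 to 209 counts per library and AL157871.4 had 0 in every library, against 1835 to 8007 for WARS. The pseudogene WARSP1 also had 0 counts.

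RefSeq promoters (GRCh38.p14, 250 bases before to 50 bases after each gene start) were found for 30 of the 37 members, 39 promoters in all. A motif bound by interferon-activated factors, the core of the interferon-stimulated response element (ISRE), was searched as GAAANNGAAA, and the gamma-activated site as TTCNNNGAA, both on either strand. Of 35116 promoters of this length in the table, 3.57% held the ISRE core and 7.66% the gamma-activated site. Both were present in the downstream one of the 2 WARS promoters. In the GENCODE annotation, all 250 bases before the start lay inside annotated exons of WARS itself for both promoters. Counted from the gene start of that promoter, the ISRE core lay at -55 to -46 and the gamma-activated site at -142 to -134. The upstream WARS promoter held neither. The 2 sites are shown on the minus strand, which is the strand of the gene, with the motif in capitals and 10 bases on each side, because WARS is the member on which the largest difference rests. The windows are chr14:100375383-100375412 for the ISRE core and chr14:100375471-100375499 for the gamma-activated site.
WARS ISRE core: tttcagaaggGAAACTGAAAgaaagagggg
WARS gamma-activated site: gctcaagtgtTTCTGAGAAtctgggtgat
Over all member promoters, 3 of 39 held the ISRE core, in WARS and in both promoters of EARS2. The gamma-activated site was in 7 of 39, in the promoters of WARS, CARS, TARS, PARS2 and WARS2. The 2 promoters of EARS2 overlap and hold the same ISRE core, and the 2 of WARS2 the same gamma-activated site. Each of these sites was thus counted in both promoters. A match describes the letters in the window and does not show that a factor bound there.

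The genes that moved with WARS were described in 2 ways. Of 12 interferon-gamma-responsive genes, 10 fell and 0 rose in L996 against PC3, with a median log2 fold change of -1.35, beside 0.01 over all genes tested. When L996 replicate 1 was left out, 11 fell and 0 rose, with a median of -1.26, beside 33.2% of all genes called. Of the same 12, 8 rose and 0 fell in RP11 against PC3, with a median of 0.41. The called share of this list was 83.3% in L996 against PC3 and 66.7% in RP11 against PC3, beside 22.3% and 19.8% of all genes. The named genes HLA-B (antigen presentation), IDO1 and CXCL10 (a chemokine) had log2 fold changes in L996 of -2.27 ± 0.10, -2.54 ± 0.13 and -3.16 ± 0.19 (adjusted p = 1.41e-07, 4.26e-07 and 9.52e-07, edgeR). In RP11, their log2 fold changes were -0.10, 0.27 and 0.47, and IDO1 alone of these passed the test (adjusted p = 0.0317, edgeR). IRF1, a factor that binds the ISRE, fell in L996 by 1.00 ± 0.09 on the log2 scale and rose in RP11 by 0.56 ± 0.05 (adjusted p = 2.07e-05 and 2.54e-08, edgeR), as did WARS; it is named here with its values already seen. No gene of the list rose in L996 against RP11, and 11 of 12 fell, beside 21.4% of all genes called and 12.1% lower.

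**Figure D2:**
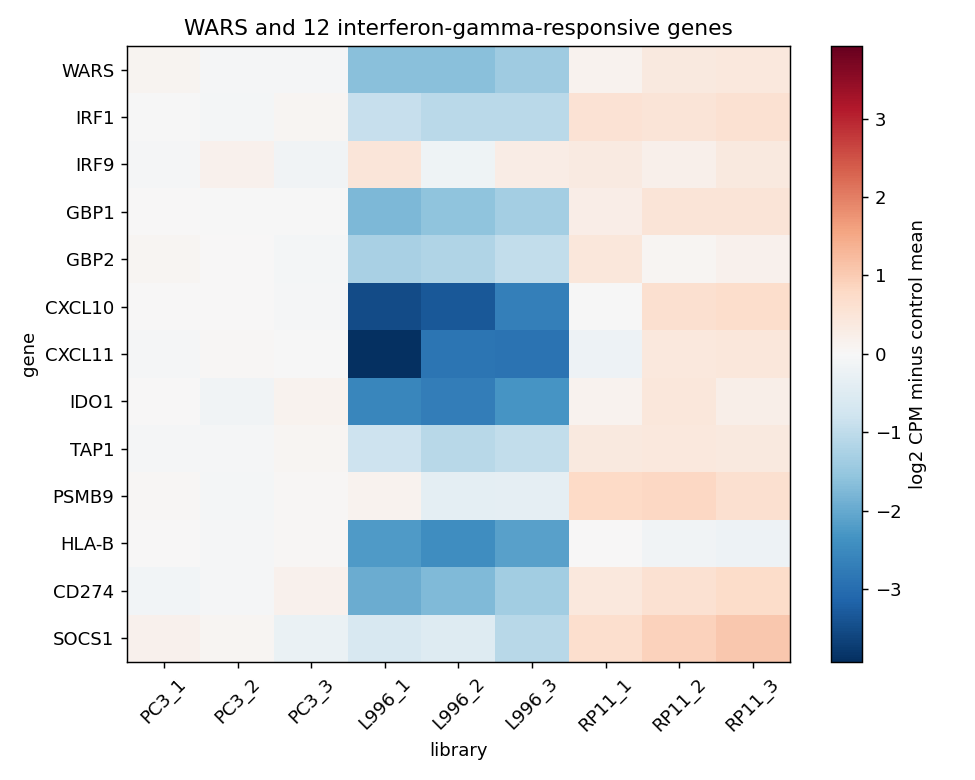
Log2 CPM minus the mean of the PC3 libraries for WARS and 12 interferon-gamma-responsive genes (rows) in the 9 libraries (columns), blue for lower and red for higher. WARS, IRF1, GBP1, CD274, CXCL10, CXCL11 and IDO1 are blue in all 3 L996 libraries.

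Among the 10879 other protein-coding genes whose mean CPM was 5 or more, the 5 whose log2 CPM followed WARS most closely over the 9 libraries were NFE2L3, GBP1, CXCL10, GBP4 and ETV3, with Pearson's r from 0.995 to 0.997. GBP1 and GBP4 encode interferon-inducible GTPases. The mean level of GBP4 was 107 CPM in PC3, 28.6 CPM in L996 and 148 CPM in RP11. The 9 points fall into the 3 groups, and this r does not separate group differences from variation within a group. Of the other 36 synthetases, GARS followed WARS most closely, with an r of 0.85, and 1129 genes had a higher r. QARS, the glutamine enzyme, had the lowest, with -0.92.

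In L996 against PC3, all 37 members were tested, and 11 passed edgeR's test, with an adjusted p under 0.05 (these are termed called), or 29.7%, beside 22.3% of all genes tested. Of these, 9 rose and 2 fell, beside 10.7% of all genes that rose and 11.6% that fell. The 2 that fell were WARS and GARS. Without L996 replicate 1, 18 were called, 14 higher and 4 lower, beside 33.2% of all genes tested. Without control replicate 1, or without control replicate 2, the only calls were QARS and WARS, while the calls over all genes went from 3588 to 2094 and 1925. Without control replicate 3 there were 5 calls among 2162 over all genes, and without L996 replicate 2 there were 4 among 2474. The calls of FARSB and TARSL2 were lost without control replicate 1, control replicate 2 or L996 replicate 2, and that of IARS without any 1 of these or control replicate 3. Apart from WARS, the called members had log2 fold changes between -0.31 and 0.57, so the size of their change was well below that of WARS.

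**Figure D3:**
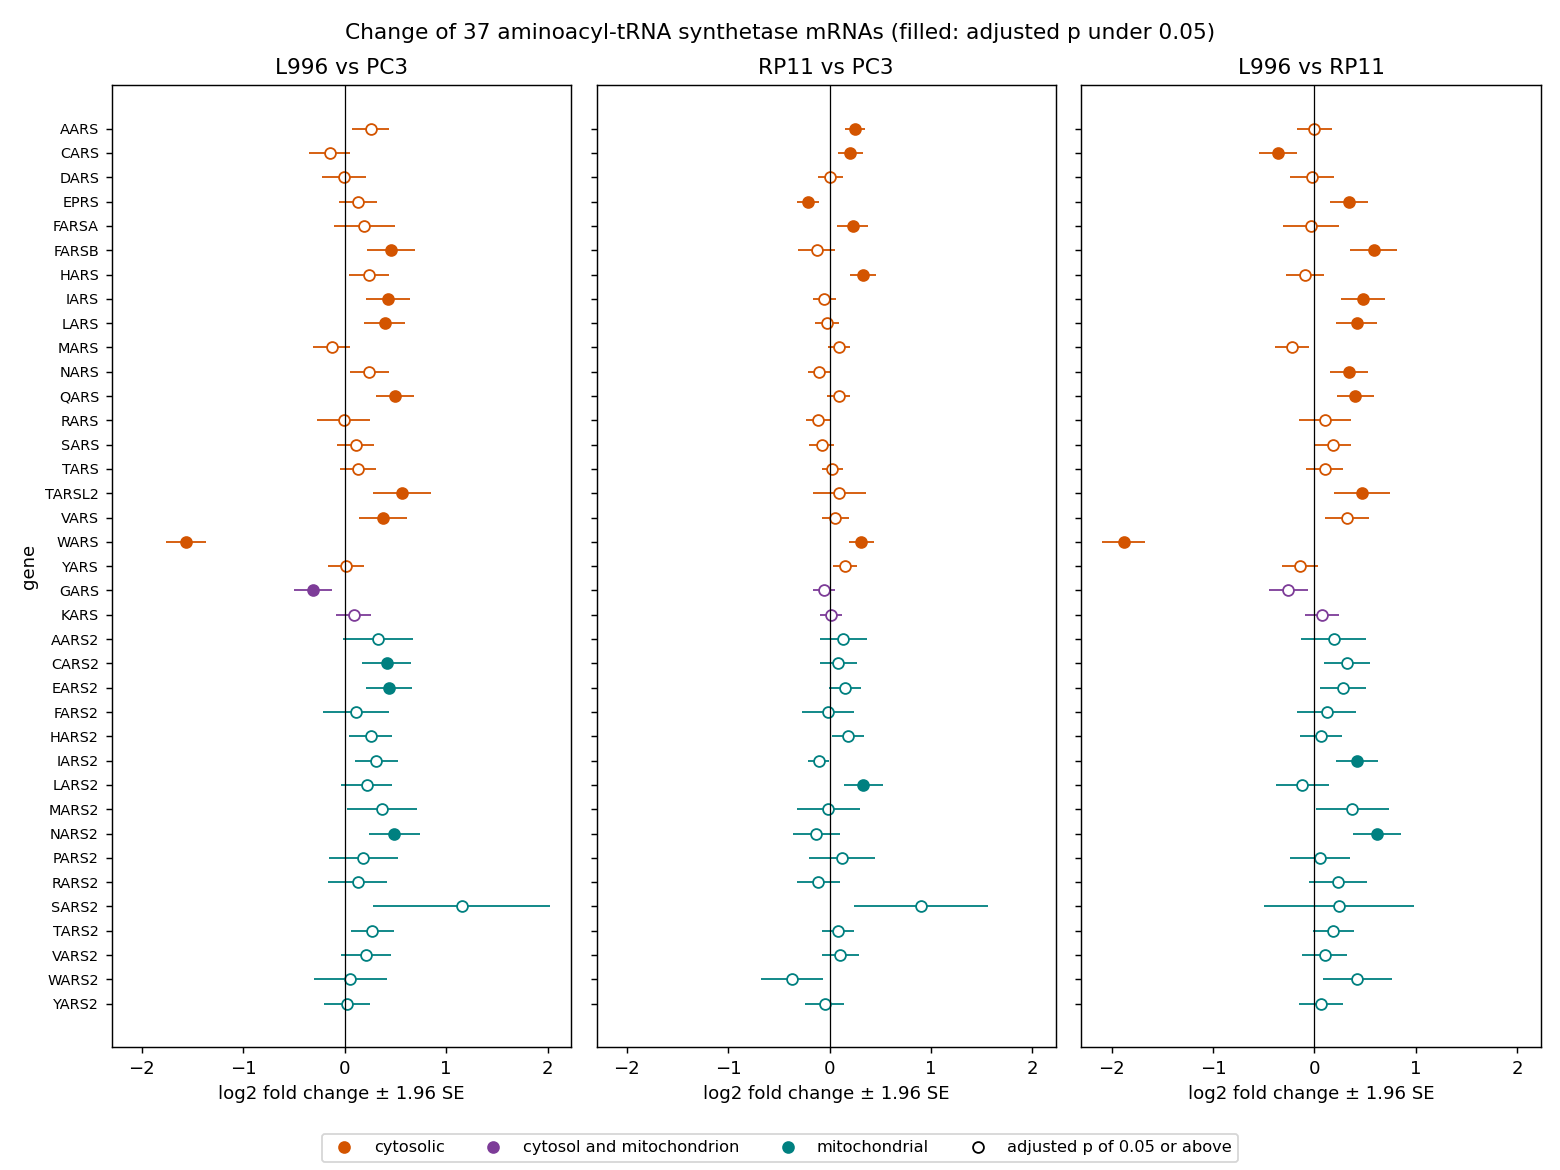
Log2 fold change of each of the 37 synthetase genes in the 3 comparisons, on 1 common axis, with bars of 1.96 SE on each side and filled points where the adjusted p was under 0.05 (orange cytosolic, purple both compartments, green mitochondrial). WARS lies at -1.56 and -1.88 in the comparisons with L996, apart from the other members, and SARS2 has the widest bars.

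Of the 8 synthetases of the multisynthetase complex (EPRS, IARS, LARS, MARS, QARS, RARS, KARS and DARS), 3 rose in L996 and 0 fell, or 37.5% called beside 22.3% of all genes tested, with a median log2 fold change of 0.11. Leaving out L996 replicate 1 gave 4 that rose and 1 that fell, beside 33.2% of all genes called. QARS (chr3:49095932-49105135, minus strand) had 72.9, 73.0 and 73.2 CPM in PC3 and 113, 101 and 95.0 CPM in L996, with no overlap. It rose by 0.50 ± 0.10 on the log2 scale (adjusted p = 0.00358, edgeR), and by 0.42 without L996 replicate 1. The isoleucine enzyme IARS (chr9:92210207-92293756, minus strand) had 152, 168 and 172 CPM in PC3 and 186, 239.6 and 237 CPM in L996, with replicate 1 of L996 the lowest of its group but above all controls. It rose by 0.43 ± 0.11 (adjusted p = 0.016, edgeR), and by 0.54 without that library. LARS, the leucine enzyme, rose by 0.39. The other members did not pass: EPRS, the enzyme for glutamate and proline, had a log2 fold change of 0.13 ± 0.10, KARS 0.09 ± 0.09, RARS (arginine) -0.01 ± 0.13, DARS (aspartate) -0.01 ± 0.11 and MARS (methionine) -0.13 ± 0.09. EPRS passed as higher and MARS as lower without that library, with 0.20 ± 0.06 and -0.18 ± 0.07 (adjusted p = 0.0171 and 0.0393, edgeR). Of the 3 scaffold genes, EEF1E1 rose, with a log2 fold change of 0.67 ± 0.16 (adjusted p = 0.00945, edgeR), while AIMP1 and AIMP2 stood at 0.00 ± 0.11 and -0.01 ± 0.12.

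The cytosolic phenylalanine enzyme is built from FARSA and FARSB subunits. FARSB (chr2:222570536-222656337, minus strand) had 27.5, 32.0 and 33.4 CPM in PC3 and 38.2, 43.1 and 46.5 CPM in L996, with no overlap. It rose by 0.46 ± 0.12 on the log2 scale (adjusted p = 0.0169, edgeR), and by 0.53 without L996 replicate 1. FARSA had 53.7, 51.8 and 43.3 CPM in PC3 and 72.1, 48.8 and 49.3 CPM in L996, so that only replicate 1 of L996 lay above the controls. Its log2 fold change was 0.19 ± 0.15, or -0.01 ± 0.09 without that library, and neither passed. Whether the 2 subunits differed in their change was not tested.

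TARSL2 (chr15:101653598-101724604, minus strand) had 8.64, 7.97 and 9.20 CPM in PC3 and 11.1, 14.1 and 13.1 CPM in L996, and rose by 0.57 ± 0.15 on the log2 scale (adjusted p = 0.016, edgeR). TARS, the main cytosolic threonine enzyme, had a log2 fold change of 0.13 ± 0.09. VARS, the valine enzyme, rose by 0.38. GARS (chr7:30594681-30634033, plus strand) had 129, 134 and 128 CPM in PC3 and 93.8, 109 and 113 CPM in L996. All L996 libraries lay below the controls, and GARS fell by 0.31 ± 0.10 on the log2 scale (adjusted p = 0.0382, edgeR). That call was lost with library size alone as the scaling, with no filter on low counts, and without any 1 of the 3 controls or L996 replicate 2. The remaining cytosolic members that were not called lay between -0.15 (CARS, the cysteine enzyme) and 0.26 (AARS). TARSL2 rose by 0.66 and GARS fell by 0.23 without L996 replicate 1, and then AARS, NARS and TARS passed as higher and CARS as lower.

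**Figure D4:**
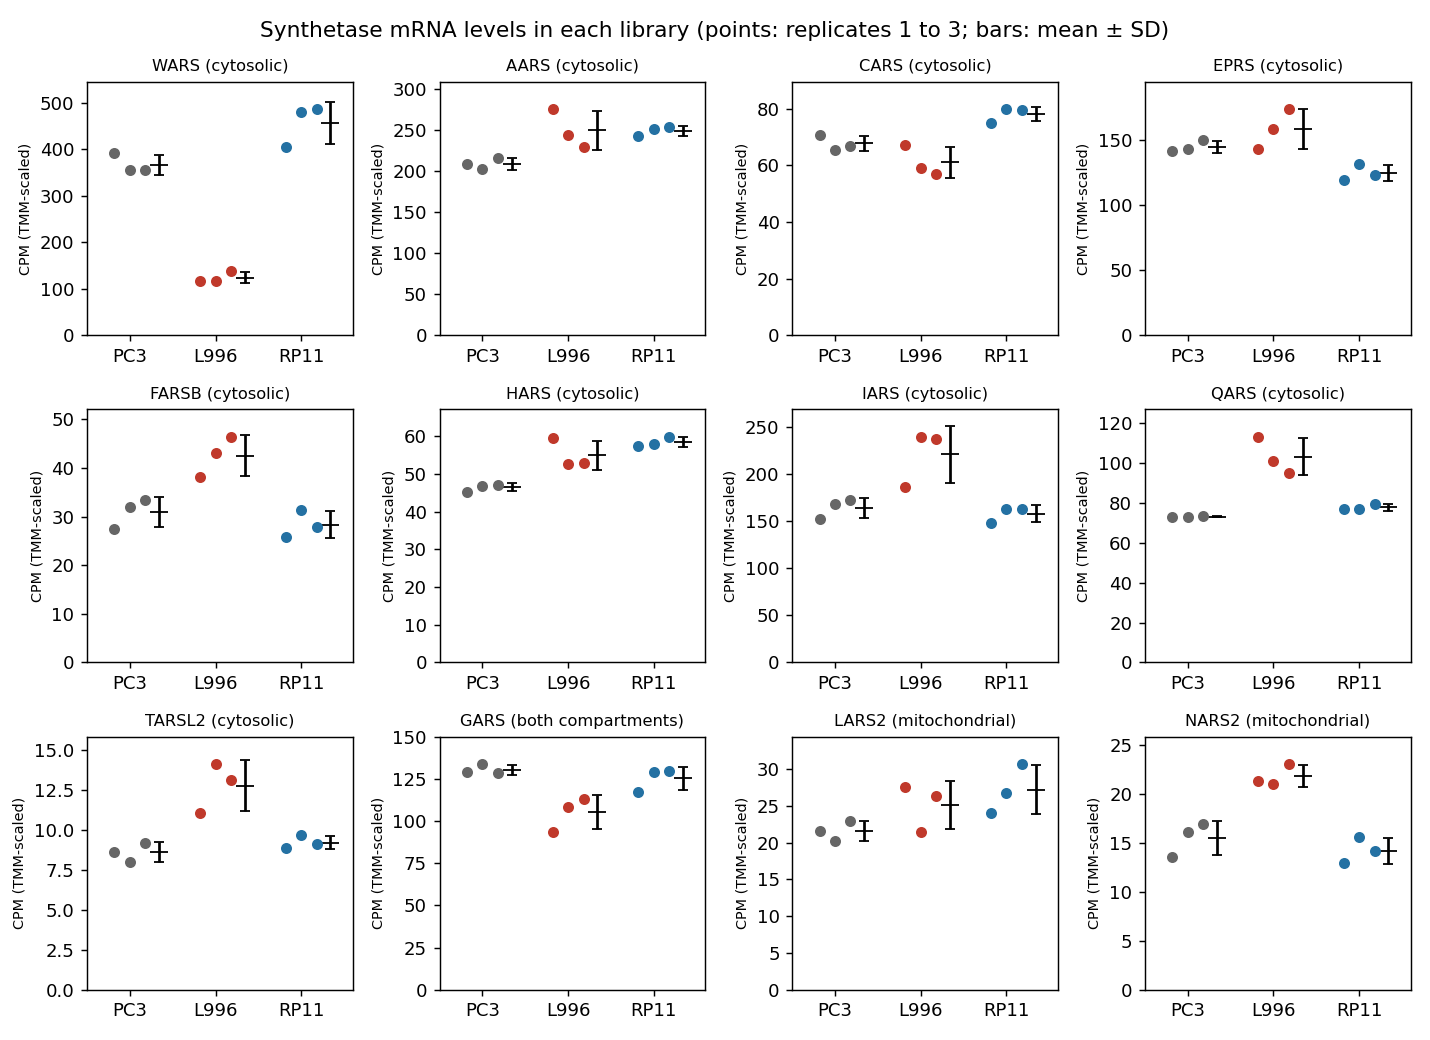
CPM of the 12 synthetase genes described by library, with points for the 3 libraries of each group (replicates 1 to 3 from left to right) and bars for the group mean ± SD. WARS is lowest in L996, QARS, FARSB, IARS, TARSL2 and NARS2 are highest in L996, and AARS and HARS are lowest in PC3.

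Of the 16 mitochondrial members, 3 rose in L996 against PC3 and 0 fell, or 18.8%, which was near the 22.3% of all genes called. With L996 replicate 1 left out, 4 rose and 0 fell, beside 33.2% of all genes called. Of the 21 cytosolic members, 6 rose and 2 fell, or 38.1%, and 10 rose and 4 fell without that library. The mitochondrial members had the lower median FPKM, and the part of level in these shares was not tested. All 16 mitochondrial log2 fold changes were above 0 with all libraries, and 15 without L996 replicate 1, where FARS2 stood at -0.04 ± 0.15. The median was 0.26, beside 0.16 for the 20 cytosolic members without WARS, 0.13 for all 21 cytosolic members and 0.01 for all genes tested. NARS2, the asparagine enzyme (chr11:78435961-78574874, minus strand), had 13.5, 16.1 and 16.9 CPM in PC3 and 21.2, 21.0 and 23.0 CPM in L996, with no overlap. It rose by 0.49 ± 0.13 on the log2 scale (adjusted p = 0.0179, edgeR), and by 0.51 without L996 replicate 1. EARS2 (glutamate) rose by 0.44 and CARS2 (cysteine) by 0.41. IARS2, the most abundant of them, had 188, 182 and 200.5 CPM in PC3 and 199, 256 and 254 CPM in L996. With L996 replicate 1 among the controls, its log2 fold change of 0.31 ± 0.11 did not pass, and without that library it was 0.42 ± 0.06 and passed (adjusted p = 2.47e-06, edgeR). SARS2 had 23, 10 and 20 counts in PC3 and 73, 23 and 28 counts in L996, highest in replicate 1, with a log2 fold change of 1.15 ± 0.44, or 0.50 ± 0.41 without that library, and neither passed. Its exons share 349 bases with MRPS12 on the opposite strand, which had 1124, 991 and 1083 counts in PC3 and 2351, 1384 and 1447 counts in L996, also highest in replicate 1. Without knowing the strand setting, reads of the 2 genes there cannot be told apart. The exons of SARS2 also share 1492 bases on the same strand with AC011455.2, which had at most 1 count. The exons of VARS2 share 1858 bases on the same strand with GTF2H4, which had at most 5 counts. How reads over these shared bases were assigned is not given, so the counts of SARS2 and VARS2 may leave such reads out.

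By library, the median deviation of the 16 mitochondrial members from the control mean was 0.38, 0.23 and 0.23 on the log2 scale in the L996 libraries. That of the 20 cytosolic members without WARS was 0.14, 0.15 and 0.18. In the control libraries the 2 medians lay between -0.06 and 0.10. The distance between the 2 classes was thus largest in L996 replicate 1, the library that stood apart from its replicates, and the exons of the mitochondrial members had a median GC content of 51.2% against 46.8% for the cytosolic members. Without L996 replicate 1, the medians in L996 against PC3 were 0.21 for the mitochondrial and 0.18 for the cytosolic members. With an offset for GC content in each library, they were 0.26 and 0.16. The difference between the classes was described only, with no test, and the part of GC content in it was not tested further.

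**Figure D5:**
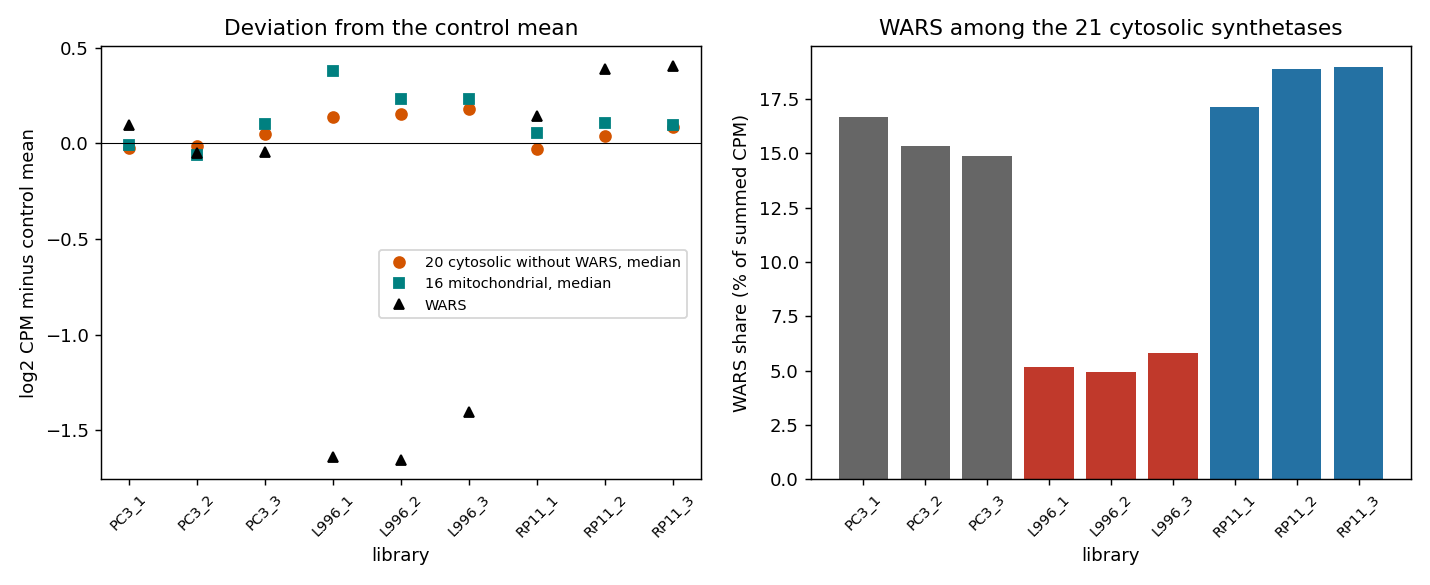
Left, log2 CPM minus the mean of the PC3 libraries for WARS and for the median of 20 other cytosolic and 16 mitochondrial synthetases, in each library. Right, the share of WARS in the summed CPM of the 21 cytosolic synthetases, in percent, which is 4.93 to 5.79 in L996 and at least 14.9 in the other groups.

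In RP11 against PC3, 7 of 37 members were called by edgeR's quasi-likelihood test, or 18.9%, beside 19.8% of all genes tested, so the share was near the background. Of these, 6 rose and 1 fell, beside 11.4% of all genes that rose and 8.49% that fell. AARS (chr16:70252295-70289543, minus strand) had 208, 202 and 216 CPM in PC3 and 242, 251 and 253 CPM in RP11, with no overlap. It rose by 0.25 ± 0.05 on the log2 scale (adjusted p = 0.000641, edgeR). HARS, the histidine enzyme (chr5:140673904-140691862, minus strand), had 45.2, 46.9 and 47.2 CPM in PC3 and 57.3, 57.9 and 59.9 CPM in RP11. It rose by 0.33 ± 0.07 (adjusted p = 0.00073, edgeR). HARS and its mitochondrial neighbour HARS2 lie on opposite strands and share 437 exonic bases, and HARS2 had a log2 fold change of 0.18 ± 0.08 that did not pass.

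LARS2, the mitochondrial leucine enzyme (chr3:45388506-45549421, plus strand), had 21.5, 20.3 and 23.0 CPM in PC3 and 24.0, 26.8 and 30.7 CPM in RP11. It rose by 0.33 ± 0.10 on the log2 scale (adjusted p = 0.0174, edgeR) and was the 1 mitochondrial member of 16 called in this comparison, beside 19.8% of all genes. Its call was lost without control replicate 2, RP11 replicate 2 or RP11 replicate 3. EPRS (chr1:219968601-220046658, minus strand) had 141, 143 and 149.6 CPM in PC3 and 119, 132 and 123 CPM in RP11, and fell by 0.22 ± 0.06 (adjusted p = 0.00623, edgeR). CARS and FARSA rose by 0.21 and 0.23, and 6 of the 21 cytosolic members were called in all, or 28.6%. The median log2 fold change was 0.03 for the 21 cytosolic and 0.08 for the 16 mitochondrial members, beside -0.0013 for all genes tested. Their order and the sign of the mitochondrial median depended on the GC content offset, which gave 0.03 and -0.024. Without control replicate 2 the medians were 0.0030 and 0.03, and without RP11 replicate 3 they were -0.0047 and 0.09. No member passed when all 9 libraries were fitted together, in which 8 members had an unadjusted p under 0.05 in edgeR, and calls over all genes went from 3180 to 437. DESeq2 on the 6 libraries called 6 members and 2477 genes in all. With an offset for gene length, 8 members were called, 6 higher and 2 lower, and 2979 genes in all.

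In L996 against RP11, 11 of 37 members were called by edgeR's quasi-likelihood test, or 29.7%, beside 21.4% of all genes tested. Of these, 9 were higher in L996 and 2 lower, beside 9.38% of all genes that were higher and 12.1% that were lower. This comparison shares libraries with each of the other 2 and is no independent evidence. NARS2 had 12.9, 15.5 and 14.1 CPM in RP11, below all L996 libraries, and was higher in L996 by 0.61 ± 0.12 on the log2 scale (adjusted p = 0.00405, edgeR). FARSB had 25.9, 31.3 and 27.9 CPM in RP11 and was higher in L996 by 0.58 ± 0.12 (adjusted p = 0.00495, edgeR). IARS, with 148, 163 and 163 CPM in RP11, was higher by 0.48 ± 0.11, and QARS, with 76.8, 76.7 and 79.5 CPM in RP11, by 0.40 ± 0.09 (adjusted p = 0.00962 and 0.0102, edgeR). No L996 library overlapped the RP11 libraries for these 4 genes, which were named for their small adjusted p. The same held for members that were not called, such as SARS and WARS2.

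CARS (chr11:3000922-3057613, minus strand) had 67.3, 59.0 and 56.9 CPM in L996 and 75.1, 79.7 and 79.4 CPM in RP11, and was lower in L996 by a log2 fold change of -0.36 ± 0.10 (adjusted p = 0.0207, edgeR). Its call was lost with an offset for gene length and without any 1 of RP11 replicates 1, 2 and 3 and L996 replicates 2 and 3. Of the complex, EPRS, IARS, LARS and QARS were higher in L996 than in RP11 and 0 of 8 were lower, beside 21.4% of all genes called. With L996 replicate 1 left out, RARS was higher as well and MARS was lower, by a log2 fold change of -0.27 ± 0.06 (adjusted p = 0.000228, edgeR), beside 41.6% of all genes. Without L996 replicate 1, 20 of 37 members were called, 15 higher and 5 lower, beside 41.6% of all genes tested. Without RP11 replicate 1, the calls were WARS, NARS2 and FARSB, and without RP11 replicate 2, RP11 replicate 3 or L996 replicate 2 there were 4, 5 and 4 calls. Over all genes, these 4 fits gave 1840 to 2125 calls, against 3452 with all libraries. IARS was not called without L996 replicate 2 or RP11 replicate 1, nor QARS without RP11 replicate 1 or 2. The median log2 fold change was 0.21 for the mitochondrial and 0.10 for the cytosolic members, but 0.10 and 0.15 without L996 replicate 1, so that their order depended on this library.

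A further motif, the CARE element bound by ATF4 together with C/EBP factors, was searched as TGATGCAA on either strand, and 6 of 39 member promoters held it, beside 0.866% of all promoters. These 6 belonged to AARS, CARS, IARS, MARS, NARS and TARS, all cytosolic. The windows of AARS (chr16:70289676-70289703), CARS (chr11:3057408-3057435) and IARS (chr9:92293693-92293720), all minus-strand genes, are shown because these 3 are described by library above. They are read along the gene, with the element in capitals, which here lies on the opposite strand and reads TTGCATCA.
AARS CARE: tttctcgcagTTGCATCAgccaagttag
CARS CARE: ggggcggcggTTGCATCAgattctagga
IARS CARE: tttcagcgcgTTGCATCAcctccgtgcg
The E-box CACGTG, the site of MYC-type factors, was in 5 of 39 member promoters and in 7.26% of all, with matches in IARS, CARS2, EARS2 and MARS2. The match in EARS2 is the same site, counted in both of its promoters. Of the 6 genes with a CARE element, IARS rose in L996 against PC3, beside 22.3% of all genes called, while AARS, CARS, MARS, NARS (asparagine, 0.24 ± 0.10) and TARS did not pass. All 6 passed there without L996 replicate 1, with AARS, IARS, NARS and TARS higher and CARS and MARS lower, beside 33.2% of all genes called. AARS and CARS rose in RP11 against PC3 and the other 4 did not pass, beside 19.8% of all genes called. In L996 against RP11, IARS and NARS were higher and CARS was lower, beside 21.4%.

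ATF4 and 19 of its amino acid response targets were measured beside them. In L996 against PC3, 4 of the 20 rose and 5 fell, with a median log2 fold change of 0.02, or 45% called beside 22.3% of all genes tested. With that comparison made without L996 replicate 1, 3 rose and 7 fell, beside 33.2% of all genes called. The smallest adjusted p-values belonged to TRIB3, a stress-induced pseudokinase, with -0.57 ± 0.09, PSAT1, an enzyme of serine synthesis, with 0.59 ± 0.10, and SHMT2, the mitochondrial serine hydroxymethyltransferase, with 0.72 ± 0.13 (adjusted p = 0.00104, 0.00121 and 0.00192, edgeR). In RP11 against PC3, 8 of the 20 rose and 0 fell, or 40% beside 19.8% of all genes called, with a median of 0.17, and ATF4 itself rose by 0.37 ± 0.05 (adjusted p = 1.48e-05, edgeR). ATF4 had a log2 fold change of 0.17 ± 0.10 in L996, which did not pass. In L996 against RP11, 1 was higher and 5 were lower, beside 21.4% of all genes called, and 3 were higher and 10 lower without L996 replicate 1, beside 41.6%.

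Of 9 other tRNA charging and editing genes, 3 rose and 1 fell in L996 against PC3, or 44.4% called beside 22.3% of all genes tested, with a median log2 fold change of 0.31. The counts were 4 and 1 without L996 replicate 1, beside 33.2% of all genes called. SEPSECS, which makes selenocysteine on its tRNA, fell by 0.61 ± 0.16, and AARSD1, an alanyl-tRNA editing protein, rose from a mean of 0.72 CPM to 1.75 CPM (adjusted p = 0.0186 and 0.02, edgeR). DTD2, a tRNA deacylase, had 13.5, 17.2 and 12.8 CPM in PC3 and 17.2, 20.9 and 23.2 CPM in L996, and rose by 0.49 ± 0.16 (adjusted p = 0.0413, edgeR). QRSL1, GATB and GATC, which form the amidotransferase that makes mitochondrial glutaminyl-tRNA in place of a glutamine enzyme, had log2 fold changes of -0.02, 0.25 and 0.31 that did not pass, though GATC passed without L996 replicate 1 (0.32, adjusted p = 0.0268, edgeR). In RP11 against PC3, 0 of the 9 were called by edgeR or DESeq2, and 2 had an unadjusted p under 0.05 in edgeR, beside 19.8% of all genes called.

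The factors that use charged tRNA were counted as well. Of 6 cytosolic elongation factor genes, 5 were tested, and EEF1B2 and EEF1A1 rose in L996 against PC3 by 0.78 ± 0.10 and 0.43 ± 0.08 on the log2 scale (adjusted p = 0.000202 and 0.0017, edgeR), while EEF1G was listed with 0 counts in all libraries. Of 9 mitochondrial translation factors, 1 rose in L996, TUFM, the mitochondrial elongation factor Tu, with a log2 fold change of 0.46 ± 0.12 (adjusted p = 0.014, edgeR), and the median was 0.07. That 1 of 9 called, and the 2 of 5 elongation factors, stand beside 22.3% of all genes. These 2 elongation factors also rose without L996 replicate 1, as did 3 mitochondrial factors, TUFM (0.32), GFM1 (0.35) and MRRF (0.25), beside 33.2% of all genes called. In RP11 against PC3, EEF1A1 rose by 0.13 and the mitochondrial initiation factor MTIF2 fell by 0.22, each the 1 call of its list in edgeR, beside 19.8% of all genes. DESeq2 called 0 of the 9 mitochondrial factors there, so the MTIF2 call was lost. TUFM had 240.3, 189.6 and 173 CPM in L996, again highest in replicate 1, and 144, 148 and 146 CPM in PC3.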

How the data were processed

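RNA of A549 cells was sequenced in 9 libraries, 3 per group, and groups were taken from the sample titles. The authors deposited counts per gene, without normalization, and FPKM per gene. Per the labels' processing notes, HISAT2 2.0.5 and featureCounts 1.5.0-p3 were used with build GRCh38, and DESeq2 1.20.0 and edgeR 3.22.5 are also named there. The study's methods describe poly-A selection, random priming and second strand synthesis with dNTP, and name no step that marks strand; the strand setting of the counting is not given in the sources used here.

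Each comparison was fitted on its 6 libraries with edgeR 4.0.16 in R 4.3.3 over all genes that passed filterByExpr, with TMM normalization, the robust quasi-likelihood test and Benjamini-Hochberg adjustment. Genes with an adjusted p under 0.05 were called. CPM values use TMM factors over all 9 libraries, and log2 CPM a prior count of 2. FPKM values were only averaged. Exonic overlaps and GC content came from the GENCODE annotation of GRCh38. The procedure was tested on simulated counts.

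The members, classes, gene lists and motifs were chosen with earlier results of these data known. Named were WARS, and in each comparison up to 4 members that rose and up to 4 that fell with the smallest adjusted p, as well as up to 3 called genes of each list in L996 against PC3. Other genes are named with their values already seen. With 9 libraries of at least 15272450 counts, counting error was small for most members, and SARS2 was limited by its low counts. DESeq2 1.42.0, library size alone, no filter, at least 10 counts in every library, 1 fit over 9 libraries, each library left out, the replicate block, a gene length offset, an added log2 fold threshold of 0.5 and, chosen after seeing the data, a GC content offset (loess, span 0.75) were the alternatives. Intervals in the plots are ± 1.96 SE. Some genes of these lists are not reported here.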

Additional observations from a re-analysis of the deposited data

How the results depend on the processing

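The WARS decrease in L996 kept its direction and its call in all 14 alternatives, between -1.65 and -1.52 against PC3 and between -1.97 and -1.82 against RP11. Its increase in RP11 lay between 0.26 and 0.39 and lost its call in the fit of all 9 libraries, at 0.31 (adjusted p = 0.0783, edgeR). Leaving out 1 library gave -1.65 to -1.52, -1.97 to -1.83 and 0.27 to 0.39.

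The number of members called was less stable. In L996 against PC3, the main count of 11 became 17 with all 9 libraries in 1 fit, 20 with the GC content offset (chosen after seeing the data) and 2 with a log2 fold change of at least 0.5 required. Calls over all genes rose as well, from 3588 to 4659 and 6020 in the first 2 of these. In L996 against RP11, 11 became 20 with the GC content offset (5978 over all genes, from 3452) and 3 with that fold. In RP11 against PC3, 7 became 0 with all 9 libraries (8 at an unadjusted p under 0.05 in edgeR, and 437 calls over all genes, from 3180) and 0 with that fold. Leaving out 1 library gave 2 to 18, 3 to 20 and 4 to 9 calls in L996 against PC3, L996 against RP11 and RP11 against PC3, with 1925 to 5481, 1840 to 6828 and 1914 to 3598 calls over all genes. DESeq2 called 12, 11 and 6 members, and 3562, 3332 and 2477 genes in all. Why these counts moved was not tested.

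The cytosolic median in L996 against PC3 (0.13) was 0.19 without GARS and KARS, and 0.12 to 0.18 with 1 library left out. In L996 against RP11 (0.10), it was 0.16 with library size alone, and 0.06 to 0.15 with 1 library left out, while the mitochondrial median (0.21) then ranged from 0.10 to 0.27; the order of the classes turned without L996 replicate 1. The mitochondrial median in RP11 against PC3 (0.08) was -0.024 with the GC content offset, and the cytosolic median (0.03) there was -0.0047 to 0.06 with 1 library left out, negative without RP11 replicate 3.

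With the replicate block, 15, 11 and 7 members were called in L996 against PC3, L996 against RP11 and RP11 against PC3, beside 4500, 3772 and 3466 calls over all genes. The labels give the libraries of different groups only a shared number. The deviations of same-numbered libraries correlated between -0.02 and 0.15, and those of differently numbered libraries between -0.12 and 0.04. Whether libraries of the same number shared a batch was not tested. Genes of low count, such as SARS2, could have changed without passing the test at this depth and number of libraries.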
